A study of Mus musculus with 24 samples.

Results

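The comparison described here concerns CD45+ cells, the hematopoietic cells, sorted from the ileum of mice with functional HOIL1 (Hoil1+/+) and with or without the IL-4 receptor alpha chain in intestinal epithelial cells (IECs). It rests on 6 of the 24 RNA-Seq libraries of the study, chosen by their genotype and sort labels alone: libraries 20, 21 and 22 from Hoil1+/+Il4raflox/flox+Vil1cre mice (ΔIEC) and libraries 12, 18 and 19 from Hoil1+/+Il4raflox/flox mice (f/f). Both groups of mice were C57BL/6 and homozygous for the floxed Il4ra allele, and the ΔIEC mice alone carried Vil1cre, a Cre recombinase driven by the Villin promoter that is active in IECs. Hematopoietic cells therefore keep Il4ra by design, and the comparison asks how these cells differ when the epithelium next to them cannot respond to IL-4 and IL-13. The age given for the f/f libraries was 9.1, 9.9 and 9.0 weeks and for the ΔIEC libraries 9.7, 9.7 and 9.0 weeks. Peyer's patches were removed, part of the epithelial fraction was pooled with the lamina propria cells, and live CD45+ singlets were sorted. The genotype fit also took in 4 CD45+ libraries from Hoil1-/- mice, 2 f/f (14, 15) and 2 ΔIEC (16, 17), which shared the estimate of the spread and gave the same deletion in a second background. These were from Hoil1-/-Il4raflox/flox mice of 9.9 and 9.4 weeks and Hoil1-/-Il4raflox/flox+Vil1cre mice of 9.6 and 9.6 weeks. CD45- libraries of the 2 Hoil1+/+ genotypes, quoted for a few genes, came from mice of 10.3, 9.0 and 9.1 weeks (f/f) and 9.7, 9.7 and 9.0 weeks (ΔIEC). Libraries 13 and 24, 1 of each Hoil1-/- genotype, were removed by the authors as outliers and are not in the fit. The labels give 3 libraries per genotype and do not state that each came from a separate mouse, so that p-values measure the spread between libraries.

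IL-4 and IL-13 are the signature cytokines of type 2 immunity, and both signal through receptors that contain IL-4Rα and activate the transcription factor STAT6. In the small intestine IL-13 acts on epithelial stem cells to expand tuft and goblet cells, and tuft cell IL-25 in turn activates group 2 innate lymphoid cells (ILC2s), the main local source of IL-13. CD45+ ileal cells include IgA-secreting plasma cells, B cells of lymphoid follicles, T cells and intraepithelial lymphocytes, innate lymphoid cells, macrophages, dendritic cells and mucosal mast cells, and a bulk library sums over all of them. A gene can therefore differ between libraries because fewer cells of a type were present or because each held less RNA, and these cannot be told apart here.

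The reads assigned to genes numbered between 25222721 (ΔIEC library 21) and 76807504 (f/f library 18) per library. Of 39056 genes in the count table, 19218 had no count in any of the 6. Levels are given as CPM, the counts of a gene relative to the scaled size of its library. The leukocyte gene Ptprc, which encodes CD45, stood between 310 and 693 CPM in all 6 libraries. Epcam and Vil1, epithelial genes, were also detected, at 21.9 to 53.9 and 1.96 to 35.2 CPM. Rbck1, the gene for HOIL1, was between 80.4 and 143 CPM in the 6 libraries and between 4.74 and 14.1 CPM in the Hoil1-/- libraries.

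Library features other than the Il4ra genotype differed between the groups. The X-inactivation transcript Xist was at 149.5 and 200.4 CPM in ΔIEC libraries 20 and 21 and under 1 CPM in the other 4, and the Y-linked gene Ddx3y was at 0 in these 2 libraries and between 25.2 and 43.0 CPM in the others, so that sex and genotype cannot be fully told apart. The summed level of 20 genes of intraepithelial and cytotoxic lymphocytes was 2171, 13758 and 1759 CPM in f/f libraries 12, 18 and 19 and 10364, 7084 and 873 CPM in ΔIEC libraries 20, 21 and 22. Library 18 therefore resembled libraries 20 and 21 in this respect, with Spearman correlations across genes of 0.958 and 0.951, against 0.921 and 0.929 with the f/f libraries 12 and 19. ΔIEC library 22, which was Ddx3y-positive and low in cytotoxic lymphocyte genes like f/f libraries 12 and 19, is singled out below for this reason. Across genes it was not closer to both of these, with correlations of 0.925 and 0.944 with libraries 12 and 19. Those with libraries 18, 20 and 21 were 0.939, 0.939 and 0.940.

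**Figure D1:**
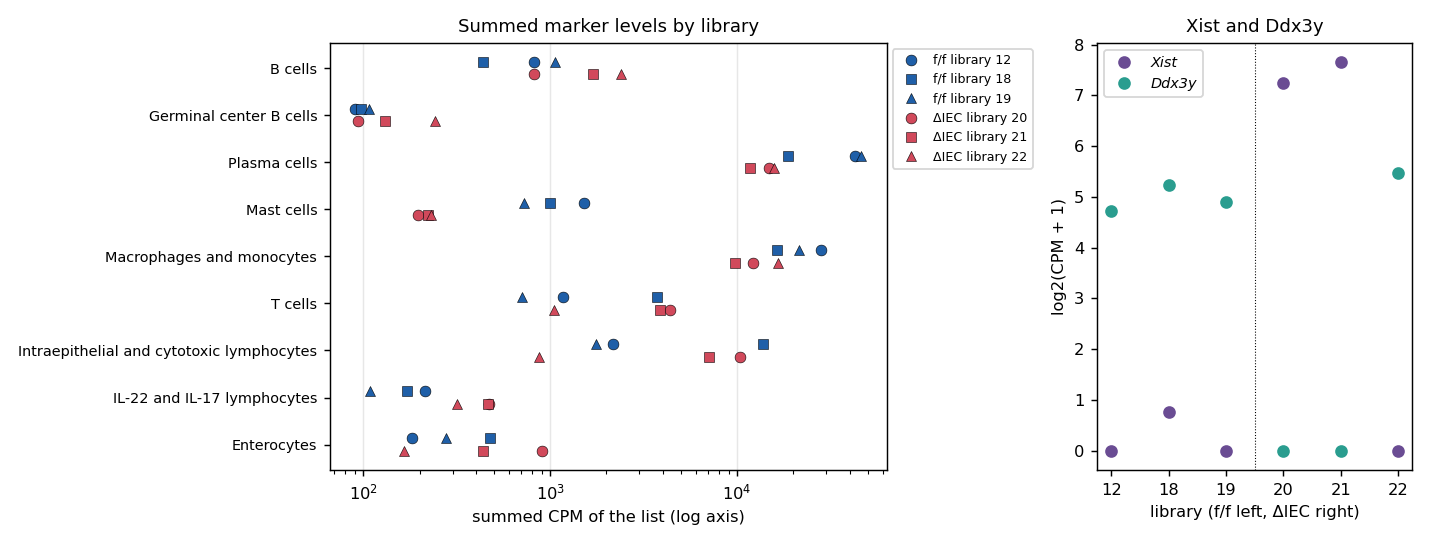
Left, summed CPM (log axis) of 9 marker lists in each of the 6 Hoil1+/+ CD45+ libraries, with f/f libraries in blue and ΔIEC libraries in red. Mast cell sums of the ΔIEC libraries (195 to 229 CPM) lie below those of the f/f libraries (719.9 to 1519 CPM), while cytotoxic lymphocyte sums of both groups interleave. Right, log2(CPM + 1) of Xist and Ddx3y by library, with Xist high in ΔIEC libraries 20 and 21 alone.

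With epithelial Il4ra deleted, 13 of 16 B cell genes were higher and 3 of 11 mast cell, 8 of 15 plasma cell and 11 of 18 macrophage genes lower in the CD45+ cells at an unadjusted p under 0.05, but no gene of these lists passed the threshold across all genes. Of 17029 genes tested with edgeR's quasi-likelihood test, 1 had an adjusted p under 0.05, Scd1, or 0.00587% of the genes tested. At an adjusted p under 0.1 there were 17 genes, 15 higher and 2 lower in ΔIEC mice. At an unadjusted p under 0.05, 794 genes (4.66%) were higher and 761 (4.47%) lower, and 1242 (7.29%) and 969 (5.69%) were higher or lower without overlap between the groups. These shares, and a median log2 fold change of 0.04 over all genes tested, are the background for the gene groups below. On simulated counts of the same design, 6% of genes changed 2-fold, 62% of those changed 4-fold and 74% of those changed 8-fold were recovered at the adjusted threshold. Most 2-fold differences could therefore not be called at this sample size. The simulation changed 50 genes at each of these folds and 50 at 16-fold (90% recovered), and 4 unchanged genes were called. More genes passed there than in the data, which loosens the adjusted threshold, so that these shares can overstate recovery here. Fcer2a, with a ratio of means of 38.1, was not called. Other tests called more genes on the same libraries, up to 268 (145 higher and 123 lower) with DESeq2.

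Scd1 encodes stearoyl-CoA desaturase 1, the enzyme that introduces the double bond that turns saturated into monounsaturated fatty acids. The gene (ENSMUSG00000037071.2) lies on the minus strand at chr19:44394455-44407879 (GRCm38). Its level was 5.08, 7.43 and 6.99 CPM in the f/f libraries and 94.4, 236 and 252 CPM in the ΔIEC libraries, with means of 6.50 ± 1.25 and 194 ± 86.9 CPM (SD, n = 3 each). Every ΔIEC library was far above every f/f library. Scd1 thus rose by 4.90 on the log2 scale (SE 0.50), a ratio of means of 29.9, with an adjusted p of 0.0348 in edgeR's quasi-likelihood test. In Hoil1-/- CD45+ cells, by contrast, Scd1 was already at 153 and 60.0 CPM in the f/f libraries and at 131 and 166 CPM in the ΔIEC libraries, a log2 difference of 0.48 (SE 0.52). The difference between the backgrounds had an unadjusted p of 9.34e-05 but an adjusted p of 0.591.

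The family member Scd2 did not share the pattern, at 90.7, 87.6 and 67.9 CPM in f/f and 86.5, 72.4 and 77.2 CPM in ΔIEC libraries. Scd4, a paralog on the same chromosome, was at 0 in the 3 f/f libraries and at 2.54, 0.618 and 0.514 CPM in the ΔIEC libraries, at least 20.6-fold higher against a floor of 3 counts. Few reads could be shared between the copies, since 1.01%, 1.82% and 0.359% of the 100-base windows of Scd1 transcripts occur in Scd2, Scd3 and Scd4. Of 32 genes tested within 1 Mb of Scd1, 5 were higher and 1 was lower at an unadjusted p under 0.05. In the CD45- cells of mice with the same genotypes, Scd1 was at 12.2 ± 1.69 CPM in f/f and 9.99 ± 9.90 CPM in ΔIEC libraries. The log2 fold change of Scd1 stayed between 4.65 and 5.39 over 19 alternative analyses, and its adjusted p was under 0.05 in 9 of them. It missed the threshold without library 12, 19, 21 or 22, where no gene passed, while 61 genes passed without library 18 and 17 without library 20.

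**Figure D2:**
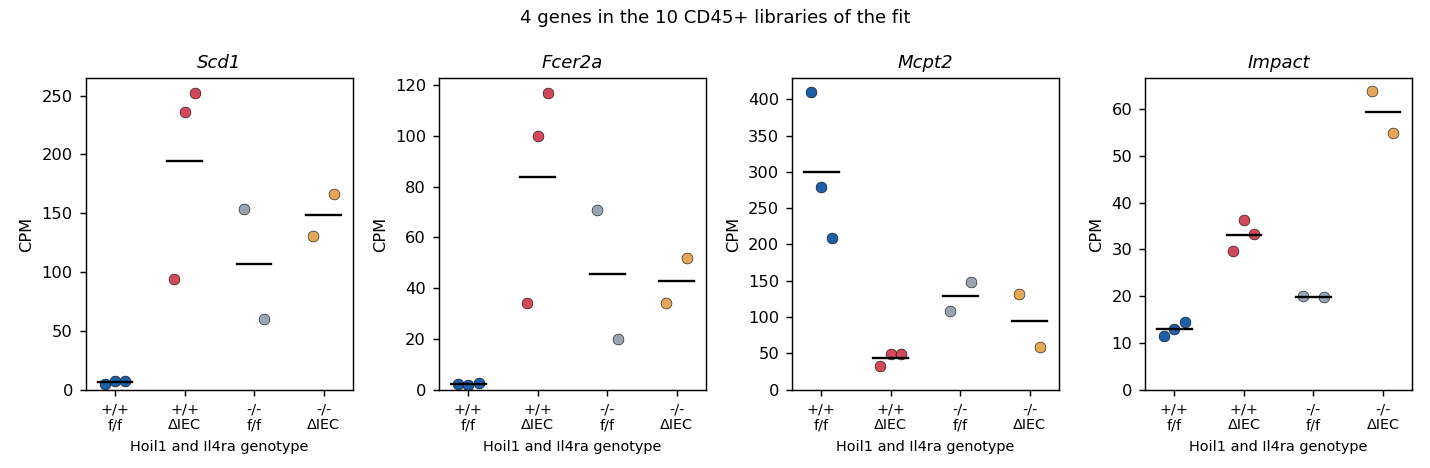
CPM of Scd1, Fcer2a, Mcpt2 and Impact in each of the 10 CD45+ libraries of the fit, by Hoil1 and Il4ra genotype. Points are libraries and lines group means. In Hoil1+/+ mice the f/f and ΔIEC libraries do not overlap for any of the 4 genes, and in Hoil1-/- mice they do not overlap for Impact.

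Most B cell genes had higher levels in the ΔIEC libraries. Of 16 B cell genes, all tested, 13 were higher in ΔIEC libraries at an unadjusted p under 0.05 and none was lower, 11 were higher without overlap between the groups, and none passed the adjusted threshold. Their median log2 fold change was 2.65, against 0.04 over all genes. The largest differences were in genes of mature follicular B cells.

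Fcer2a encodes CD23, the low-affinity receptor for IgE on mature B cells, and is a classic target of IL-4 signaling through STAT6. It was at 2.33, 1.87 and 2.39 CPM in the f/f libraries and at 34.1, 100.0 and 117 CPM in the ΔIEC libraries. The log2 fold change was 5.25 (SE 0.61), with an adjusted p of 0.0559 in edgeR's quasi-likelihood test. The 250 bases before its start (RefSeq, GRCm38.p6, chr8:3690862-3691111, minus strand) are shown because they hold the palindrome that STAT6 prefers, TTC and GAA with any 4 bases between, in capitals 168 to 159 bases before the start.
Fcer2a: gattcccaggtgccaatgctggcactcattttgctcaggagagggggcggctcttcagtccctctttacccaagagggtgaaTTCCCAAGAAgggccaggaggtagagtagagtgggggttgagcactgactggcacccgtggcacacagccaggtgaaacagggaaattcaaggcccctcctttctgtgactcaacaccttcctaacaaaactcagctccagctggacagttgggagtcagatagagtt
This element, searched on both strands, occurs in 5.85% of 32851 RefSeq promoters cut to the same length, and in 1 of 15 promoters of the 12 B cell genes found in the table. Of the same 15 promoters, 1 (Cd22) held a form of the EBF1 palindrome, TCCC and GGGA with any 2 bases between, which occurs in 0.779% of all promoters.

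Transcription factors that specify B cells showed the same order of groups. Pax5, which commits lymphoid progenitors to the B lineage, was at 2.07, 3.40 and 6.24 CPM in f/f and 40.04, 138 and 163 CPM in ΔIEC libraries (log2 fold change 4.87, SE 0.63, adjusted p 0.0559 in edgeR's quasi-likelihood test). Ebf1, which acts upstream and beside it, was at 3.88, 1.54 and 2.93 against 16.1, 57.3 and 66.7 CPM (4.07, SE 0.62, adjusted p 0.0859 in the same test). Spib, an ETS factor of the B lineage, differed by 2.82 on the log2 scale (SE 0.55, edgeR adjusted p 0.203). In each case library 20 was the lowest of the ΔIEC libraries and still above every f/f library.

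The surface molecules of B cells followed. Cr2, the complement receptor CD21, was at 1.41, 1.52 and 0.941 CPM in f/f and 10.9, 43.8 and 51.2 CPM in ΔIEC libraries (log2 fold change 4.76, SE 0.68, edgeR adjusted p 0.0674). Ms4a1, which encodes CD20, was at 8.11, 5.27 and 4.73 against 23.6, 91.8 and 101 CPM (3.58, SE 0.60, edgeR adjusted p 0.132). The groups did not overlap for either gene. The IgM Fc receptor gene Fcmr differed by 4.08 (SE 0.74), the kinase gene Blk by 2.49, and the inhibitory receptor gene Cd22 by 1.44 on the log2 scale. Smaller were the differences of Bank1 (1.35), Fcrl1 (1.41) and Cd72 (0.45).

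The other 3 members of the list did not reach an unadjusted p under 0.05. Cd79a, a chain of the B cell receptor complex, was at 268, 95.5 and 429.7 CPM in f/f and 171, 288 and 551 CPM in ΔIEC libraries. The coactivator gene Pou2af1 was at 216, 65.7 and 267 against 77.9, 116 and 261 CPM, and Cd79b differed by 0.49 (unadjusted p 0.118). For these genes the groups overlapped. The sum over all 16 genes was 815, 436 and 1058 CPM in f/f and 815, 1694 and 2388 CPM in ΔIEC libraries.

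Several genes outside the list were also higher in every ΔIEC library than in any f/f library. Cxcr5, the receptor that guides B cells and follicular helper T cells into follicles, was at 1.77, 3.09 and 4.92 CPM in f/f and 37.5, 126 and 139 CPM in ΔIEC libraries (log2 fold change 4.95, SE 0.68, edgeR adjusted p 0.0559). Pik3c2b, a class II phosphoinositide 3-kinase gene, was at 2.56, 2.2003 and 2.23 against 11.3, 20.3 and 32.3 CPM (3.19, SE 0.41, edgeR adjusted p 0.0559). Aff3, a nuclear factor gene expressed in lymphoid cells, differed by 2.91 (SE 0.39, edgeR adjusted p 0.0559), and Chst3, a chondroitin sulfotransferase gene, by 4.01 (SE 0.59, edgeR adjusted p 0.0761). Rabep2, an endosomal trafficking gene named after its values were seen, was at 10.1, 12.02 and 10.8 against 22.7, 36.7 and 34.2 CPM (1.505, SE 0.24, edgeR adjusted p 0.0919). Both Ffar1, a fatty acid receptor gene, and Scn4a, a sodium channel gene, had no count in the f/f libraries. Ffar1 was at 1.83, 9.21 and 8.25 CPM in the ΔIEC libraries, at least 108-fold above the floor, and Scn4a at 2.16, 13.1 and 6.68 CPM, at least 122-fold above it.

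Ccr7 and 3 genes named after their values were seen, S1pr1, Satb1 and Foxo1, had the same order of groups. Ccr7, which guides lymphocytes and migratory dendritic cells to lymphoid tissue, was at 29.2, 20.9 and 44.8 CPM in f/f and 96.3, 220 and 260 CPM in ΔIEC libraries (log2 fold change 2.60, SE 0.58, edgeR adjusted p 0.321). S1pr1, the receptor for egress into lymph, was at 16.9, 13.99 and 23.8 against 57.4, 128 and 183 CPM (2.75, SE 0.60). Satb1, a chromatin organizer of lymphocytes, differed by 2.11 (SE 0.39, edgeR adjusted p 0.181), and Foxo1, which sustains Ccr7 and Il7r expression, by 1.41 (SE 0.28). None of these passed the threshold.

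**Figure D3:**
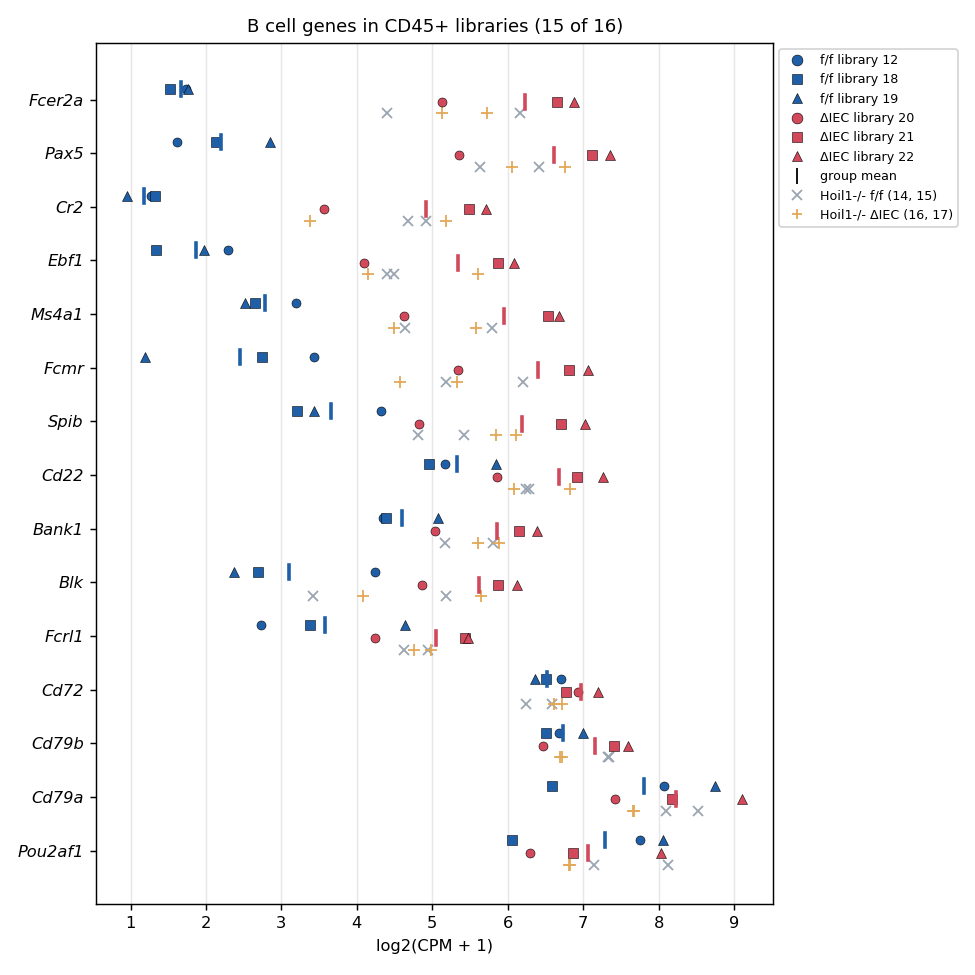
log2(CPM + 1) of 15 of the 16 B cell genes in the 6 Hoil1+/+ libraries (f/f blue, ΔIEC red, vertical lines group means) and in the 4 Hoil1-/- libraries (crosses), ordered by unadjusted p. For the upper rows, from Fcer2a to Spib, the 3 ΔIEC libraries lie to the right of the 3 f/f libraries, and both Hoil1-/- groups lie mostly at the level of the ΔIEC libraries. For Cd79b, Cd79a and Pou2af1 the groups overlap.

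The B cell difference was also present in library 22, the ΔIEC library most like f/f libraries 12 and 19 in Xist, Ddx3y and cytotoxic lymphocyte genes. Library 22 was above all 3 f/f libraries in 15 of the 16 genes, which within 1 library are not independent of each other. The share of all genes for which this held is not given here. With libraries 20 and 21 left out, and again with library 18 also left out, the list had medians of 3.15 and 2.90. Both settings were chosen after seeing the data and leave library 22 as the only ΔIEC library. In Hoil1-/- mice the B cell genes gave no such difference, with a median of 0.16. Fcer2a was at 70.8 and 20.1 CPM in Hoil1-/- f/f and 34.0 and 51.8 CPM in Hoil1-/- ΔIEC libraries, and Pax5 at 84.4 and 48.5 against 65.6 and 107 CPM. The f/f libraries of Hoil1-/- mice were thus already above the f/f libraries of Hoil1+/+ mice. The deletion effect on Fcer2a differed between the backgrounds with an unadjusted p of 0.00011 and an adjusted p of 0.591 in edgeR's quasi-likelihood test. No gene had a smaller adjusted p in that test. Scd1 and Pax5, among others, had the same adjusted p, and the unadjusted p of Scd1 was smaller, at 9.34e-05.

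Immunoglobulin constant region genes went both ways. Ighd, the constant region of IgD that marks naive B cells, was at 5.23, 5.99 and 8.57 CPM in f/f and 45.4, 156 and 119.8 CPM in ΔIEC libraries (log2 fold change 4.02, SE 0.55, edgeR adjusted p 0.0559). Ighm was at 516, 210.3 and 297 against 422, 980.3 and 2968 CPM (2.09, edgeR adjusted p 0.493), with the groups overlapping. Igha, the constant region of IgA and the main antibody transcript of the gut, went the other way, at 147963, 51788 and 260883 CPM in f/f and 52217, 33246 and 80111 CPM in ΔIEC libraries (-1.48, edgeR adjusted p 0.545), also with overlap. The light chain gene Igkc gave -1.46. Ighg3, an IgG constant region gene, was at 1.79, 2.99 and 12.8 CPM in f/f and 10.9, 26.8 and 491 CPM in ΔIEC libraries, highest by far in library 22 (4.92, SE 1.91, edgeR adjusted p 0.532). Ighg1 was at 7.13, 19.3 and 21.2 against 29.0, 37.2 and 89.1 CPM without overlap (1.71, SE 0.89), and Ighg2b at 358, 137 and 345 against 377, 293 and 1970 CPM with overlap (1.65, SE 0.87). Of 200 variable gene segments tested, which share sequence and whose reads are therefore uncertain, 8 were higher and 43 lower at an unadjusted p under 0.05, with a median of -1.55.

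All immunoglobulin genes together took 33.9%, 17.7% and 43.6% of the counts in the f/f libraries and 16.7%, 12.1% and 21.5% in the ΔIEC libraries. The means were 31.7% ± 13.1 and 16.8% ± 4.67 (SD, n = 3 each), and the difference of -14.96 percentage points gave a two-sided p of 0.2 in an exact permutation test over 20 splits, which cannot go below 0.1. The groups overlapped, with f/f library 18 below ΔIEC library 22.

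Germinal center B cell genes were low in all libraries. Of 9 tested, 4 were higher and none lower at an unadjusted p under 0.05, with a median of 1.06. Rgs13, a regulator of G protein signaling, was at 0 in the f/f libraries and at 0.165, 2.96 and 7.84 CPM in the ΔIEC libraries, at least 61.3-fold higher. It was highest in library 22. Bcl6, the master regulator of the germinal center, was at 23.4, 34.2 and 38.4 against 39.9, 52.3 and 67.7 CPM (log2 fold change 0.74), and the DNA repair gene Neil1 differed by 1.06. Without library 22 only 1 of the 9 genes was higher, and the median was 0.47, while without library 12 the count was 2.

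Of 15 plasma cell genes tested, 8 were lower and none higher in ΔIEC libraries at an unadjusted p under 0.05, with a median of -1.06. Jchain, which joins IgA dimers, was at 39008, 17251 and 41118 CPM in f/f and 13011, 10422 and 13428 CPM in ΔIEC libraries (log2 fold change -1.40, SE 0.39, edgeR adjusted p 0.447). Fkbp11, a secretory pathway isomerase gene, was at 34.4, 18.7 and 38.9 against 9.73, 10.6 and 10.98 CPM (-1.55, SE 0.29, edgeR adjusted p 0.189). In both, library 18 was the lowest of the f/f libraries and still above every ΔIEC library. Tnfrsf17, which encodes the survival receptor BCMA, gave -1.63, Sdc1 (CD138) -1.43, the secretory regulator Xbp1 -1.20 and the chaperone gene Mzb1 -0.98. In Hoil1-/- mice the median of the list was -0.90, of the same sign, and Jchain gave -1.24. The count of 8 depended on single libraries and was 3 without library 12, 19 or 21, 4 without library 20, 12 without library 18, 2 with Xist as a covariate (median -0.49) and 1 without libraries 20 and 21 (median -0.71). Library 22 was below all f/f libraries in 3 of the 15 genes.

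Of 12 mast cell genes, 11 were tested, since Mrgprb1 was at 0 in all 6 libraries, and 3 were lower and none higher in ΔIEC libraries at an unadjusted p under 0.05. Of the 11, 9 had a log2 fold change below 0 and 2 above 0. The median was -1.93, the lowest of the lists examined, and none passed the adjusted threshold. The count of 3 was 5 without library 18 or 22. Mcpt1 and Mcpt2 encode mast cell proteases 1 and 2, the β-chymases that mucosal mast cells store in their granules. Both lie in the chymase cluster, at chr14:56017971-56020384 and chr14:56042041-56044642 (GRCm38, plus strand), with Mcpt9 between them at chr14:56026864-56030495.

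Mcpt1 was at 1006, 586 and 395 CPM in the f/f libraries and at 86.6, 94.8 and 98.4 CPM in the ΔIEC libraries. Mcpt2 was at 410.1, 279 and 209 CPM against 32.4, 49.2 and 48.9 CPM. The log2 fold changes were -2.83 (SE 0.44) and -2.78 (SE 0.38), with adjusted p of 0.0859 and 0.0559 in edgeR's quasi-likelihood test. In both genes the ΔIEC libraries stood close together and well below the lowest f/f library. The protease gene Mcpt9 was at 33.3, 14.9 and 6.91 against 2.48, 1.04 and 1.42 CPM (-3.47, SE 0.65, edgeR adjusted p 0.189). Cpa3, the granule carboxypeptidase A3, was at 24.3, 20.3 and 12.4 against 3.05, 2.57 and 6.42 CPM (-2.24, SE 0.43, edgeR adjusted p 0.192). No 100-base window was shared between Mcpt1 and Mcpt2, Mcpt4, Mcpt9 or Cma1.

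The other mast cell genes did not reach an unadjusted p under 0.05. Gata2, a transcription factor of mast cells and their progenitors, gave -1.47 (unadjusted p 0.053). Fcer1a, the IgE-binding chain of the high-affinity receptor, was at 5.34, 6.90 and 1.26 against 1.08, 1.20 and 1.27 CPM. Mcpt4, the chymase of connective tissue mast cells, was at 6.25, 3.17 and 3.63 against 2.54, 0 and 0.952 CPM. Kit, the stem cell factor receptor, which innate lymphoid cells also express, was at 33.8, 68.2 and 32.7 against 64.2, 64.9 and 33.0 CPM, with no common direction. Hdc, the histamine-forming enzyme shared with basophils, was at 9.54, 14.5 and 34.9 against 3.08, 3.06 and 27.2 CPM. The sum of the list was 1519, 993 and 719.9 CPM in f/f and 195, 222 and 229 CPM in ΔIEC libraries.

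Promoters of granule protease genes are shown with GATAA, the core element of the GATA factors of mast cells, in capitals (RefSeq, GRCm38.p6, 250 bases before the start). Mcpt1 (chr14:56017714-56017963, plus strand) holds it 98 to 94 bases, Mcpt4 (chr14:56062311-56062560, minus strand) 102 to 98 bases and Cpa3 (chr3:20242182-20242431, minus strand) 45 to 41 bases before the start.
Mcpt1: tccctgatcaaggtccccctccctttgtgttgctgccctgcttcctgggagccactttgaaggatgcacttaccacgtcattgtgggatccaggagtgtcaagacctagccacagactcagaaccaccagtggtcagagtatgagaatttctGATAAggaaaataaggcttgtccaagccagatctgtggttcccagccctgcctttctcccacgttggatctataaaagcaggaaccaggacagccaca
Mcpt4: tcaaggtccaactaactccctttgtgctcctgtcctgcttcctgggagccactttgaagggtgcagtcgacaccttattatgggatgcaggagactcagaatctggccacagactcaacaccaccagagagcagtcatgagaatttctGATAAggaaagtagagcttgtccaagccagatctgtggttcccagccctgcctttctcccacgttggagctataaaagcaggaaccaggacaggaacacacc
Cpa3: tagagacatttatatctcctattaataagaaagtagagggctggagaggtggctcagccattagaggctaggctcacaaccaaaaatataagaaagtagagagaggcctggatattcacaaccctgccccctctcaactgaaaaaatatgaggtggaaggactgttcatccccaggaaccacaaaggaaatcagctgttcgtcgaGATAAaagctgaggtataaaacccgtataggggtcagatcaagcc
Searched on both strands, the element was present in 6 of 12 promoters of 10 mast cell genes found in the table (Cma1, Cpa3, Fcer1a, Mcpt1, Mcpt4 and Ms4a2) and in 22.6% of all promoters of this length. A match is a description of these letters and not evidence of binding.

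In Hoil1-/- mice the mast cell genes had a median of 0.06. Mcpt2 was at 108 and 148 CPM in Hoil1-/- f/f and 131 and 58.7 CPM in Hoil1-/- ΔIEC libraries, and Mcpt1 at 241 and 319.6 against 314 and 118 CPM. These levels lay between those of the Hoil1+/+ f/f and Hoil1+/+ ΔIEC libraries. The difference between the backgrounds had unadjusted p of 0.00219 and 0.00402 and adjusted p of 0.591 and 0.595 for Mcpt2 and Mcpt1. Without libraries 20 and 21, and also without library 18, 3 of 11 genes were again lower in the Hoil1+/+ mice, with medians of -1.82 and -1.51.

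**Figure D4:**
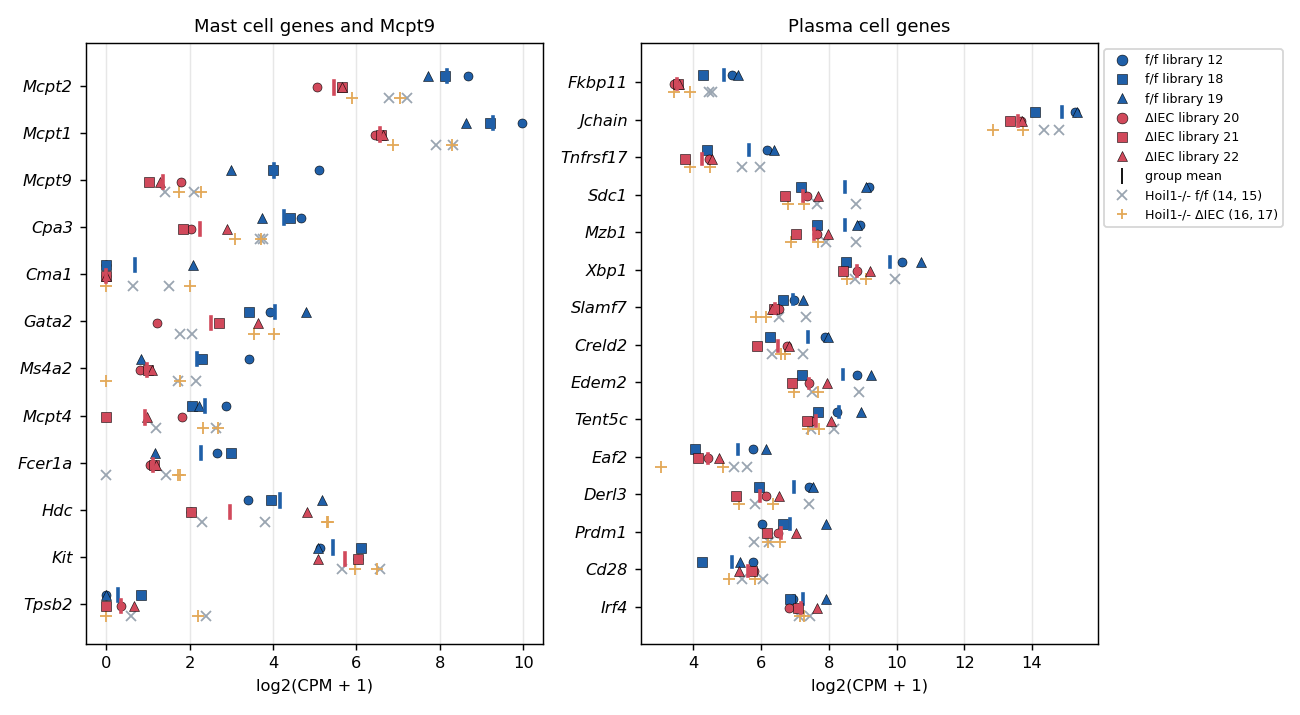
log2(CPM + 1) of mast cell genes and Mcpt9 (left) and plasma cell genes (right) in the 6 Hoil1+/+ libraries (f/f blue, ΔIEC red, vertical lines group means) and the 4 Hoil1-/- libraries (crosses). For Mcpt2, Mcpt1, Mcpt9 and Cpa3 the ΔIEC libraries lie to the left of the f/f libraries without overlap, as they do for the plasma cell genes Fkbp11 and Jchain.

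All 18 macrophage and monocyte genes tested had a log2 fold change below 0, 11 of them at an unadjusted p under 0.05, and the median was -0.89. Fcgr1, the high-affinity IgG receptor CD64, was at 203, 91.5 and 90.7 CPM in f/f and 52.3, 36.6 and 53.0 CPM in ΔIEC libraries (log2 fold change -1.44, SE 0.32, edgeR adjusted p 0.323). Lyz2, the lysozyme of myeloid cells, was at 4628, 2505 and 2266 against 1242, 1008 and 1478 CPM (-1.33, SE 0.32). Ccr2, the monocyte recruitment receptor, gave -1.54, Adgre1 (F4/80) -1.04, the fractalkine receptor gene Cx3cr1 -0.97 and the complement gene C1qb -0.86. Library 12 was the highest of the f/f libraries for each of these 6 genes. The count of 11 depended on the libraries, at 6 without library 21, 17 without library 22, 5 with all 12 CD45+ libraries, 7 with Xist as a covariate, 1 without libraries 20 and 21 and 3 without library 18 as well. In Hoil1-/- mice the median of the list was 0.31.

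Among 12 genes of alternatively activated macrophages, the state that IL-4 and IL-13 induce through STAT6, 7 were lower and none higher at an unadjusted p under 0.05, with a median of -1.37. Of the 12, 10 had a log2 fold change below 0 and 2 above 0, the highest at 0.49. Clec10a, a galactose lectin gene, was at 46.8, 28.3 and 31.1 CPM in f/f and 13.4, 9.56 and 16.04 CPM in ΔIEC libraries (log2 fold change -1.45, SE 0.29, edgeR adjusted p 0.226). Its neighbor and paralog Mgl2 gave -1.29. Mrc1, the mannose receptor CD206, was at 300.0, 264 and 267 against 137, 111 and 194 CPM (-0.91). The eosinophil chemokine gene Ccl24 gave -1.58, the ribonuclease gene Ear2 -1.84 and the T cell chemokine gene Ccl17 -1.57. Retnla, which encodes RELMα, was low at 0.534, 2.93 and 9.08 against 1.14, 0.488 and 0.499 CPM, with overlap. In Hoil1-/- mice the median was -0.25. The count of 7 was 2 without libraries 20 and 21 and 4 without library 18 as well.

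Antigen presentation genes went both ways. Of 14 MHC class II genes, 3 were higher and 2 lower at an unadjusted p under 0.05, with a median of -0.45. The higher ones, H2-Oa (log2 fold change 1.38), H2-Ob (1.84) and H2-DMb2 (1.59), encode chains of H2-O and H2-M, and H2-O is best known from B cells. H2-DMb2 was at 75.7, 37.9 and 70.5 CPM in f/f and 90.3, 182 and 281 CPM in ΔIEC libraries. H2-Eb1, which all antigen-presenting cells express, gave -0.64. Of 15 dendritic cell genes 1 was higher (Ccr7, above) and 3 lower, among them Batf3 (-0.68), with a median of -0.28. The lower counts depended on the libraries. For MHC class II they were 6 without library 18 or 22 and 0 without library 12, 19, 20 or 21, and for dendritic cells 5 without library 18, 1 without library 20 and 0 without library 12, 19 or 21.

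Of the genes of IL-22 and IL-17 producing lymphocytes, all 12 tested had a log2 fold change above 0 in ΔIEC libraries, 9 of them at an unadjusted p under 0.05 and 9 without overlap, with a median of 1.51. Il22, the cytokine that induces epithelial antimicrobial proteins, was at 12.1, 3.52 and 8.04 CPM in f/f and 25.5, 15.5 and 64.4 CPM in ΔIEC libraries (log2 fold change 2.16, SE 0.71). Ltb, a lymphotoxin chain that organizes lymphoid follicles, was at 52.9, 54.4 and 34.8 against 108, 141 and 116 CPM (1.36, SE 0.32, edgeR adjusted p 0.337).

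The receptor and ligand genes of the list went the same way. Il23r was at 3.29, 1.79 and 2.12 CPM in f/f and 9.10, 12.5 and 4.28 CPM in ΔIEC libraries (log2 fold change 1.84), Ccr6 differed by 2.21, Tnfsf11 (RANKL) by 2.01 and Lta by 1.71. B cells also express Ccr6, Ltb and Lta. With Hoil1 deleted the median was 0.51, Il22 gave 2.61 and Tnfsf11 1.76. The count of 9 was 6 without library 21, 5 with Xist as a covariate and 4 without libraries 20 and 21, where 1 gene was lower, and no gene of the list reached an unadjusted p under 0.05 with all 12 CD45+ libraries in the fit.

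Of 20 ILC2 genes tested, 6 were higher and 1 lower at an unadjusted p under 0.05, with a median of 1.28. The 6 became 3 without library 19 or 21 or with all 12 CD45+ libraries, 2 with Xist as a covariate (median 0.64) and 3 without libraries 20 and 21 (median 0.44). The higher members included Il9r (log2 fold change 1.91), Icos (1.78), Rora (1.73) and Il2ra (1.55), which activated or regulatory T cells also express, and Epas1, at 8.28, 20.3 and 12.6 against 34.6, 46.6 and 20.0 CPM (1.29, SE 0.51, edgeR adjusted p 0.532). The leukotriene receptor gene Cysltr1, also found in myeloid cells, gave -0.84. Il17rb, the receptor for IL-25, was at 1.32, 7.44 and 3.98 CPM in f/f and 13.4, 7.68 and 9.93 CPM in ΔIEC libraries (1.28, unadjusted p 0.0739). Klrg1 was at 4.74, 3.69 and 3.66 against 10.5, 6.99 and 3.19 CPM, and Nmur1, the neuromedin U receptor, at 3.01, 1.77 and 1.99 against 1.51, 4.59 and 2.37 CPM. Both overlapped between the groups, and the sign of each fold change depended on the libraries included. The cytokine gene Il5 was at 0 in 5 libraries and at 0.227 CPM in library 22, and the long noncoding RNA 1700061F12Rik had no count.

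T cell genes varied with the cytotoxic lymphocyte genes, summing to 1172, 3727 and 709 CPM in f/f and 4359, 3862 and 1053 CPM in ΔIEC libraries. All 20 had a log2 fold change above 0 with a median of 0.93, but 2 reached an unadjusted p under 0.05. Tcf7, which encodes TCF-1 of naive T cells and innate lymphoid precursors, was at 38.8, 56.8 and 22.8 CPM in f/f and 124, 179 and 99.4 CPM in ΔIEC libraries (log2 fold change 1.76, SE 0.37, edgeR adjusted p 0.270). Cd2 differed by 1.13. Dgka, a diacylglycerol kinase gene of T cells named after its values were seen, was at 14.3, 33.2 and 12.6 against 68.2, 84.0 and 81.6 CPM (1.96, SE 0.35, edgeR adjusted p 0.176). Without library 18, 13 of the 20 T cell genes were higher and the median was 1.78, without library 22 5 were higher, and without libraries 20 and 21 the median was -0.60.

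Of 10 regulatory T cell genes, 3 (Tnfrsf18, Tnfrsf4 and Il2ra) were higher at an unadjusted p under 0.05, with a median of 1.07. None was higher with Xist as a covariate (median 0.04), and without libraries 20 and 21 none was higher and 1 was lower (median 0.26). Ctla4 was at 29.3, 27.6 and 30.8 CPM in f/f and 116, 106 and 31.9 CPM in ΔIEC libraries, so that library 22 stood with the f/f libraries. Of 20 intraepithelial and cytotoxic lymphocyte genes none was higher and 1, Fcer1g (-0.73), was lower, with a median of 0.31. Without library 18, 11 of them were higher (median 1.92), and without libraries 20 and 21 none was higher and 5 were lower (median -1.73).

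Few genes of the IL-4 and IL-13 receptor pathway itself reached an unadjusted p under 0.05 in the CD45+ cells. Of 15 members 14 were tested, none was higher and 1 was lower at this level, with a median of 0.27. Log2 fold changes ran from -1.04 to 1.56, with 11 above 0 and 3 below 0. Il4ra was at 96.6, 105 and 241 CPM in the f/f libraries and at 165, 215 and 256 CPM in the ΔIEC libraries (log2 fold change 0.52, SE 0.35, edgeR adjusted p 0.623). The groups overlapped through f/f library 19. In the Hoil1-/- libraries it was at 81.1 and 78.7 against 263 and 243 CPM, a log2 difference of 1.66. Stat6 was at 128, 140.2 and 159.8 against 128, 155 and 129.5 CPM. Il13ra1, the chain that pairs with IL-4Rα in the receptor for IL-13 on myeloid and epithelial cells, was the lower member, at 73.6, 34.0 and 59.8 against 22.7, 17.8 and 40.5 CPM (-1.04, SE 0.35, edgeR adjusted p 0.508).

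The cytokine genes were low in every library. Il4 was at 2.37, 1.44 and 2.204 CPM in f/f and 3.53, 1.69 and 2.87 CPM in ΔIEC libraries, and Il13 at 0, 0.627 and 2.4995 against 2.01, 0.748 and 3.01 CPM. Il33 had counts in f/f library 18 alone, at 0.593 CPM, and Il25 had none. The groups overlapped for both Il4 and Il13. In CD45- cells, which hold the epithelium in which the deletion takes place, Il4ra was at 63.6, 174 and 89.7 CPM in f/f and 51.3, 61.0 and 135 CPM in ΔIEC libraries (-0.40, SE 0.46, edgeR adjusted p 0.986). A count over the whole gene does not separate reads of the floxed exons from the rest. The epithelial gene Vil1 also varied between these CD45- libraries, at 750, 196 and 235 CPM in f/f and 1620, 1531 and 317 CPM in ΔIEC. The part of the cell mix in the Il4ra levels was not tested. Of 12 genes of type 2 cytokines and alarmin receptors tested, Il7r (1.497) and Il18r1 (1.53) were higher and Tslp, at 2.198, 0.445 and 0.108 CPM against 0 in all ΔIEC libraries, was lower at an unadjusted p under 0.05.

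Impact, an imprinted gene whose product inhibits the translation kinase GCN2, differed by a similar amount in both backgrounds. It was at 11.4, 12.9 and 14.4 CPM in f/f and 29.7, 36.3 and 33.3 CPM in ΔIEC libraries (log2 fold change 1.36, SE 0.19, edgeR adjusted p 0.0559), and at 20.0 and 19.7 against 63.9 and 55.0 CPM in Hoil1-/- mice (1.58, SE 0.23). The difference between the backgrounds had an unadjusted p of 0.471. In CD45- cells Impact was at 12.4 ± 3.67 CPM in f/f and 9.17 ± 1.82 CPM in ΔIEC libraries. Of 16 integrated stress response genes tested, the pathway in which GCN2 acts, 2 were higher and 1 (Asns, -1.57) lower at an unadjusted p under 0.05.

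The Hoil1+/+ and Hoil1-/- comparisons share no libraries. They come from the same fit, however, and share each gene's estimate of the spread, so that calls in both are not independent. Of the 794 genes higher at an unadjusted p under 0.05 in Hoil1+/+ mice, 101 (12.7%) were also higher in Hoil1-/- mice and 20 were lower there, while 3.63% of all genes tested were higher there. Of the 761 lower genes 69 (9.07%) were also lower and 38 were higher, against 3.39% of all genes lower there. No gene passed the adjusted threshold for a difference of the deletion effect between the backgrounds in edgeR's quasi-likelihood test, and 1193 genes had an unadjusted p under 0.05.

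Other genes were lower without overlap, none past the threshold. Ifitm1, an interferon-induced transmembrane gene, was at 61.1, 28.1 and 31.5 CPM in f/f and 10.6, 8.30 and 11.9 CPM in ΔIEC libraries (log2 fold change -1.97, SE 0.34, edgeR adjusted p 0.173). Nrp1, the semaphorin and VEGF coreceptor, was at 61.5, 55.3 and 52.7 against 26.2, 23.3 and 32.1 CPM (-1.05, SE 0.19, edgeR adjusted p 0.176). Tmem37 gave -1.29, Chp2, a sodium-proton exchanger cofactor gene, -1.28, the ribosomal protein paralog Rps27l -1.11 and the transporter gene Abca9 -1.01.

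**Figure D5:**
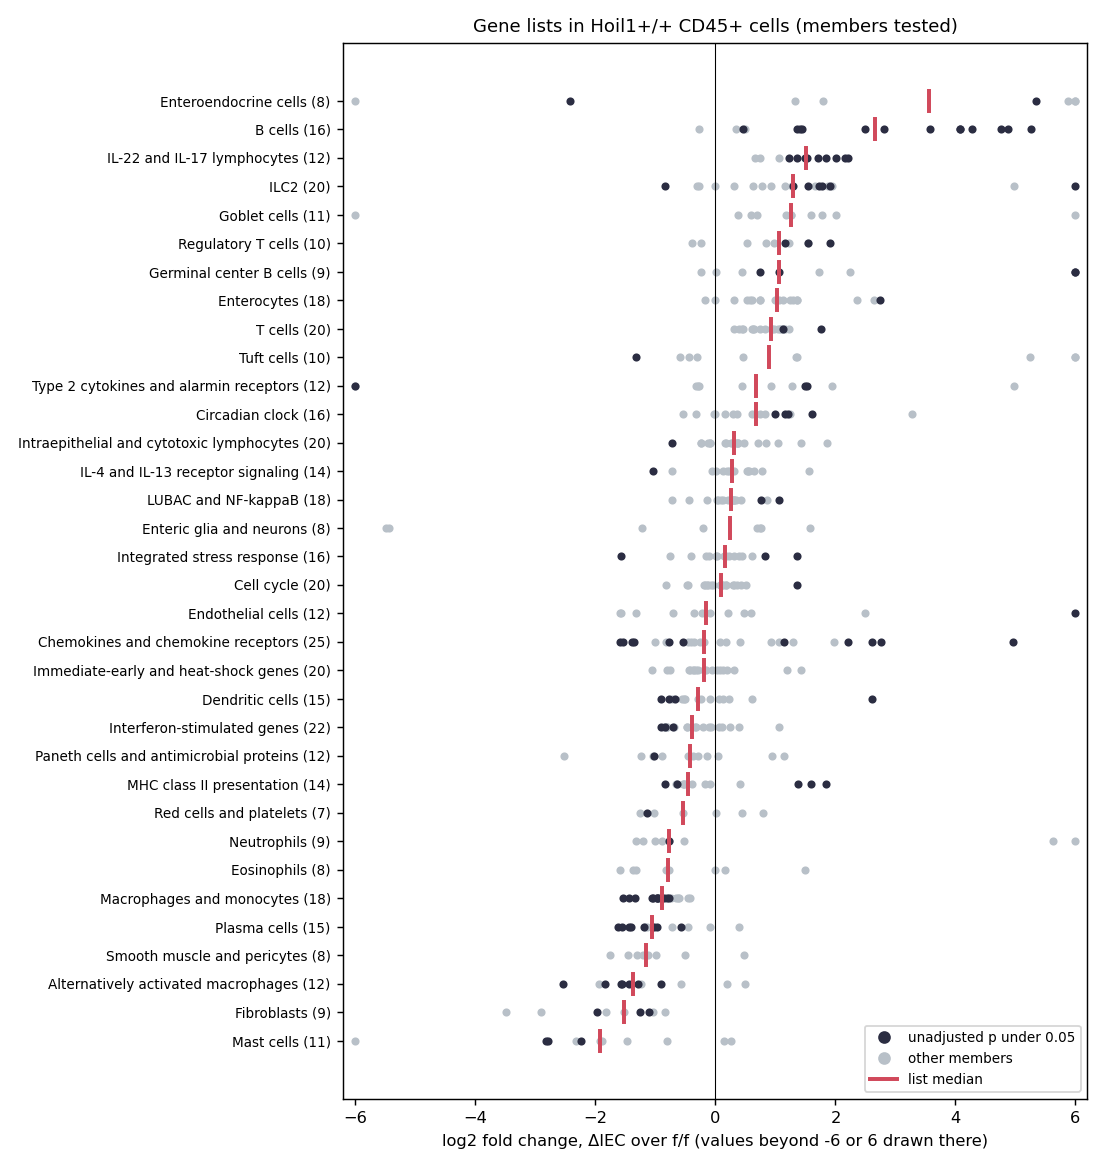
log2 fold changes (ΔIEC over f/f) of the tested members of each gene list, ordered by the list median (red line), with the number tested in parentheses and members at an unadjusted p under 0.05 in black. B cell genes (median 2.65) lie near the top and mast cell genes (median -1.93) at the bottom. Values beyond -6 or 6, drawn at the edge, belong to genes with few counts, which set the high median of the enteroendocrine list.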

How the data were processed

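RNA from sorted ileal CD45+ cells was sequenced after poly-A and strand selection. Per the labels and methods, the authors used cutadapt for trimming, STAR for alignment to mm10 and featureCounts for counting on ENSEMBL genes; the deposited values are raw counts per gene, with no version of these tools given in the sources used here. Antibody transcripts took up to 43.6% of a library, so CPM were scaled by TMM and can still shift with them. Gene names and positions were taken from GENCODE M21 (GRCm38), which matched 38872 of 39056 identifiers.

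Counts of 10 CD45+ libraries were fitted in edgeR 4.0.16 (R 4.3.3) with genotype means and tested by quasi-likelihood, with filterByExpr (minimum count 10, minimum total 15) and Benjamini-Hochberg adjustment over 17029 genes, with a threshold of 0.05. Log2 fold changes are ΔIEC over f/f, with SE. Levels against 0 used a floor of 3 counts. The test was checked on simulated counts. Counting error and the spread between libraries set the precision at depths of 25222721 to 76807504 counts.

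Genes named are those past the threshold, up to 12 protein-coding genes per direction with the smallest p and groups that do not overlap, check genes, up to 4 members of each list with the smallest p and the 2 with the highest level, genes the paper names, the IL-4 and IL-13 pathway and neighbors of called genes within 1 Mb. Other list members and genes were named after their values were seen. The members and lists were chosen with earlier results of these data known. Some genes counted within the lists are not reported here by name.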

Additional observations from a re-analysis of the deposited data

How the results depend on the processing

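The number of genes past the adjusted threshold, 1 as reported, depended on the test and the libraries. With the quasi-likelihood test it was 0 with the 6 Hoil1+/+ libraries alone, 0 with all 12 CD45+ libraries, 0 with Xist or age as a covariate, 17 (15 higher, 2 lower) without a filter on low counts and 8 (7 higher, 1 lower) without immunoglobulin and T cell receptor genes. It was 0 with limma's voom and quality weights, 148 (100 higher, 48 lower) with edgeR's likelihood ratio test, 100 (72 higher, 28 lower) with edgeR's exactTest and 268 (145 higher, 123 lower) with DESeq2. Leaving out each library in turn gave 0 to 61 genes, 0 to 54 higher and 0 to 7 lower. Of 2 settings chosen after seeing the data, leaving out libraries 20 and 21 gave 14 genes, all 14 higher (364 higher and 182 lower at an unadjusted p under 0.05), and leaving out library 18 as well gave 0 (901 higher and 336 lower at an unadjusted p under 0.05). Each of these leaves 1 ΔIEC library, whose spread is assumed to be that of the other groups. The 794 higher genes at an unadjusted p under 0.05 became 527 with the 6 libraries alone, 299 with all 12, 472 with Xist as a covariate and 433 to 1964 with a library left out. The 761 lower genes became 361 with all 12, 389 with Xist as a covariate and 319 to 1162 with a library left out. The cause of these shifts was not tested. For the difference between backgrounds, the likelihood ratio test called 68 genes, and all 12 libraries gave 703 at an unadjusted p under 0.05 against 1193. The immunoglobulin share kept its direction in each alternative run. Of the named genes recomputed under each alternative, 8 changed sign, none of which passed the adjusted threshold in any of them. Nmur1 had a log2 fold change of -0.12 with Xist as a covariate, -0.21 to 0.62 with a library left out and -0.078 without libraries 18, 20 and 21, and Klrg1 of -0.34 without libraries 20 and 21 and -0.40 without library 18 as well. In these 2 settings, in this order, Hdc had 0.47 and 0.29, Kit -0.45 and -0.0107, and Pou2af1 0.51 and 0.11. With Xist as a covariate Kit had -0.17, Pou2af1 0.27 and Scd2 0.0998, and with age as a covariate Pou2af1 had 0.070. With a library left out Pou2af1 ranged from -0.93 to 0.11, Cd79a from -0.22 to 0.89, Scd2 from -0.18 to 0.019 and Stat6 from -0.15 to 0.036. No paired analysis was possible because the labels give the groups no shared replicate numbers.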

Other observations

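Of 16 circadian clock genes tested, a group outside the comparisons of cell types, 4 were higher and none lower in the ΔIEC libraries at an unadjusted p under 0.05 (4.66% of all genes were higher), with a median log2 fold change of 0.68 and 4 genes below 0. The 4 became 2 without library 12 or 20, 1 with all 12 CD45+ libraries and 0 without libraries 20 and 21. Bhlhe40, a clock repressor that lymphocytes also induce on activation, was at 144, 155 and 264 CPM in f/f and 371, 498 and 390.2 CPM in ΔIEC libraries (log2 fold change 1.16, SE 0.37). The core activator gene Arntl was at 5.55, 12.2 and 8.95 against 18.8, 18.1 and 16.5 CPM (1.00), Nr1d1, which encodes REV-ERBα, at 15.0, 16.5 and 22.4 against 40.7, 56.4 and 27.9 CPM (1.21), and Ciart at 2.01, 1.63 and 2.74 against 5.81, 4.42 and 9.12 CPM (1.60). In each of these the groups did not overlap, and none passed the adjusted threshold in edgeR's quasi-likelihood test. The time of day of collection was not analysed here.

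Marker lists of cells outside the hematopoietic lineage, which could be carried over in a sort, had few members at an unadjusted p under 0.05. For enterocytes 1 of 18 was higher, for goblet cells none of 11 differed, for Paneth cells and antimicrobial proteins 1 of 12 was lower, for tuft cells 1 of 10 was lower, for enteroendocrine cells 1 of 8 was higher and 1 lower, for endothelial cells 1 of 12 was higher, for smooth muscle cells none of 8 and for enteric glia and neurons none of 8 differed. Of 9 fibroblast genes 3 were lower, among them Col6a1 at 10.3, 6.61 and 6.53 CPM in f/f and 1.08, 1.66 and 3.20 CPM in ΔIEC libraries. Of the tuft cell genes Avil was the lower one, at 9.71, 5.61 and 8.63 against 2.62, 4.10 and 2.84 CPM. Enterocyte genes summed to 182, 479 and 277 CPM in f/f and 907, 436 and 165 CPM in ΔIEC libraries. Several of these lists still leaned in 1 direction. Log2 fold changes were above 0 for 16 of 18 enterocyte genes (median 1.03) and 10 of 11 goblet cell genes (median 1.26). They were below 0 for 9 of 9 fibroblast genes (median -1.53) and 7 of 8 smooth muscle genes (median -1.16). Over 19 alternative analyses the enterocyte and goblet cell medians changed sign, while the fibroblast and smooth muscle medians stayed below 0. The part of carried-over cells in the results above was not tested.

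Among the other lists, no eosinophil gene of 8 and 1 neutrophil gene of 9 (Mmp9, lower) reached an unadjusted p under 0.05, with medians of -0.80 and -0.78. Of 22 interferon-stimulated genes 3 were lower (median -0.39), of 25 chemokine and receptor genes 5 were higher and 6 lower (median -0.19), and of 20 cell cycle genes 1 was higher (median 0.09). None of 20 immediate-early and heat-shock genes differed, and of 18 genes of the linear ubiquitin chain complex and NF-κB 2 were higher, Otulin (0.76) and Rel (1.05). Of 7 red cell and platelet genes Pf4 was lower, with a log2 fold change of -1.15.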
